A study of Rattus norvegicus with 20 samples.

Results

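The genes followed here were a named list of 30: the enzymes of cholesterol synthesis, the SREBP machinery that controls them, and proteins that carry or esterify cholesterol. Each gene was represented by its brightest probe set, the one with the highest mean over all arrays among those that the platform annotation ties to 1 gene symbol. Such a probe set was found for 27 of the 30 genes, out of 14217 genes with one in the whole series. Hmgcs1, Soat2 and Npc1 were not analysed here. The 27 genes comprise 8 enzymes from acetyl-CoA to farnesyl and geranylgeranyl pyrophosphate, 11 enzymes from squalene synthesis to cholesterol, 5 genes of the SREBP machinery and 3 genes of sterol handling. The list was followed across all dose groups, with attention to 1 vehicle array that earlier work on these data had found to be low.

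The samples were livers from Wistar Han rats (Crl:WI(Han)) at postnatal day 4, measured on 20 Affymetrix rat genome arrays. Dams were mated on a timed schedule and gavaged daily from gestation day 6 with corn oil alone (vehicle) or with PBDE-47, a brominated flame retardant, in corn oil. The formulations of 0.02, 3 and 10 mg/mL at 5 mL/kg gave the doses of 0.1, 15 and 50 mg/kg per day, and every group had 5 arrays. The labels give the sex as female and the tissue as the left lobe of the liver. They name no litter or animal and do not state outright whether dams or pups were sampled, so the p-values speak only of the scatter among these arrays, part of which may be technical. The fetal hepatocyte transcripts Afp and H19 were bright on all 20 arrays, at 14.2 to 14.3 and 14.0 to 14.2 log2 units, as was albumin (Alb) at 14.7 to 14.8.

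The liver makes cholesterol from acetyl-CoA through mevalonate, isoprenoid pyrophosphates, squalene and a series of sterol intermediates. The genes of this pathway are classically switched on together by SREBP2, a transcription factor held in the endoplasmic reticulum by INSIG proteins when sterols are plentiful and escorted by SCAP to the Golgi for cleavage when sterols are scarce. The cleaved factor binds sterol regulatory elements in target promoters, commonly beside sites for NF-Y and Sp1, while the related SREBP1 drives fatty acid synthesis.

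Promoters of some members are shown so that the shared and differing elements can be seen beside the values. They come from RefSeq on the GRCr8 build, each covering the 250 bases before the annotated start, 5′ to 3′ on the strand of the gene. Capitals mark matches on either strand to TCACNCCA (a sterol regulatory element core), CCAAT (the NF-Y box) and CACGTG (an E-box, which is its own reverse complement). Msmo1 had the lowest value in vehicle replicate 1 relative to its group, and Cyp51, Mvk, Insig1 and Srebf2 were also low there. Insig2 moved the other way. The promoters shown include every member found with a TCACNCCA match, so they over-represent that element. Srebf1, Fdps and Idi1 were also low in vehicle replicate 1, at -1.84, -1.46 and -1.33. Their windows held no TCACNCCA match and are not shown.
Msmo1 promoter, chr16:29746863-29747112, plus strand: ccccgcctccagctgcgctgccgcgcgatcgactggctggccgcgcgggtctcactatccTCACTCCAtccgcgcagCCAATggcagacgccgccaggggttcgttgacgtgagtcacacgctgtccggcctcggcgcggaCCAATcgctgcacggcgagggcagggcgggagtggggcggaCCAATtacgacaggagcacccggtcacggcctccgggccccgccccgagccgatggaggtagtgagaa
Srebf2 promoter, chr7:115543057-115543306, plus strand: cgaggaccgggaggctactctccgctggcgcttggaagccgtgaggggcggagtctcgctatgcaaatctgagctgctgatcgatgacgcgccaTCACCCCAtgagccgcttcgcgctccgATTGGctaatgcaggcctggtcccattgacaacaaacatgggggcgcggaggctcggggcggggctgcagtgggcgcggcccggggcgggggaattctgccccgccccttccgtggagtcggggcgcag
Mvk promoter, chr12:47819504-47819753, minus strand: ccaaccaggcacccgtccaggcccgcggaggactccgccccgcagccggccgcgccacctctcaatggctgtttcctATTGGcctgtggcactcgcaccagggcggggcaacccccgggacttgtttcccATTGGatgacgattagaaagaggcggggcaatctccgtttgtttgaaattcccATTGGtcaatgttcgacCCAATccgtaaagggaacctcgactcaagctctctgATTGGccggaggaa
Cyp51 promoter, chr4:30991443-30991692, plus strand: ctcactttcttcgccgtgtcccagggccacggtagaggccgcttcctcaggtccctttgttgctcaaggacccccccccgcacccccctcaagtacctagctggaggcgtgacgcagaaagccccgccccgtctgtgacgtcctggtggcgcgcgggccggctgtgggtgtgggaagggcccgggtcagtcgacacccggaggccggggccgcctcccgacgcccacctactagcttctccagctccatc
Insig1 promoter, chr4:8057770-8058019, minus strand: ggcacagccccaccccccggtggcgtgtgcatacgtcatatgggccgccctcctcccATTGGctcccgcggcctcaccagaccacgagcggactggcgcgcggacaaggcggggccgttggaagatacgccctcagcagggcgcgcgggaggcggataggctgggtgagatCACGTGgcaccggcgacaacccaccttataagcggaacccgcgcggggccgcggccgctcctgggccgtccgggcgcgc
Insig2 promoter, chr13:35040099-35040348, minus strand: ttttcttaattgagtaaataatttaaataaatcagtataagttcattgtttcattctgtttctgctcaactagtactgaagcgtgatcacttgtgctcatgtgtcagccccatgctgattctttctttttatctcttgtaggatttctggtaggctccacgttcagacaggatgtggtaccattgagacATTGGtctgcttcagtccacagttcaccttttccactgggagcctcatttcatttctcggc
In the Msmo1 window the TCACNCCA match lay 190 bases before the start, with 3 CCAAT matches between 68 and 173 bases before it. In the Srebf2 window the TCACNCCA match lay 156 bases before the start and the CCAAT match 129 bases before it. The Mvk window held 5 CCAAT matches, the Insig1 window 1 CCAAT and 1 CACGTG match, the Insig2 window 1 CCAAT match 61 bases before the start, and the Cyp51 window none of these letters.

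Windows that add the 50 bases after the start were available for 25 of the 30 listed genes. Pmvk, Fdft1, Sqle, Stard4 and Soat2 had no entry. CCAAT was found in 19 of the 25, against 37.5% of all 33469 windows, and 2 or more copies in 13 of the 25, against 11.2% of all. GGGCGG, the letters of an Sp1 box, was found in 20 of the 25, against 33.1% of all. TCACNCCA was found in 2 of the 25 (Msmo1 and Srebf2), against 3.89%, and CACGTG in 3 (Sc5d, Scap and Insig1), against 6.42%. The last 3 letters of TCACNCCA can overlap the start of CCAAT. These matches are descriptions of letters, not of binding.

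All values are log2 units after RMA, so a difference of 1 is a 2-fold change. Array medians ran from 5.61 to 5.65, and hepatocyte marker means stayed between 13.65 and 13.94. Transcripts of skeletal muscle (11 of 12 listed markers measured) or exocrine pancreas (12 of 13 measured) lay over 2 log2 units above the lowest array in 9 arrays: vehicle replicate 2, 0.1 mg/kg replicates 1, 2, 4 and 5, 15 mg/kg replicates 3 and 5, and 50 mg/kg replicates 1 and 4. In vehicle the muscle mean had a median of 4.64 and reached 8.68, at 0.1 mg/kg it had a median of 7.17 and reached 9.0, at 15 mg/kg 4.82 and 8.90, and at 50 mg/kg 6.06 and 7.30. The pancreas mean was 4.58 to 4.68 in vehicle and reached 7.16 in a 0.1 mg/kg array and 7.20 in a 15 mg/kg array. In bulk tissue, fewer cells of a type and less RNA per cell cannot be told apart.

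Vehicle replicate 1 stood apart from all other arrays for these genes. It was the lowest of the 5 vehicle arrays for 24 of the 27 members and the lowest of all 20 arrays for 18, whereas over all 31042 probe sets it was the lowest vehicle array for 22.9% and the lowest of all arrays for 8.68%. Its median difference from the mean of vehicle replicates 2 to 5 was -0.77 over the members and -0.01 over all probe sets. In the other 19 arrays the median member differed from the rest of its group by between -0.39 and 0.31, the lowest being 15 mg/kg replicate 3, which was the lowest of its group for 22 of the 27 members. For vehicle replicates 2 to 5 the rest of the group includes vehicle replicate 1, which raises their differences. Among the 19 enzymes, vehicle replicate 1 was the lowest vehicle array for 18 and the lowest of all arrays for 15.

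The gap was widest for Msmo1, the sterol C4-methyl oxidase, at -2.55, which is a 5.86-fold higher level in the other vehicle arrays. It was -1.84 for Sqle, squalene epoxidase and a control point of the pathway, and also -1.84 for Srebf1, which encodes SREBP1. Fdft1, the squalene synthase, was at -1.77, Cyp51, the lanosterol demethylase, at -1.53, and Fdps, the farnesyl pyrophosphate synthase, at -1.46. Insig1, itself a classical SREBP2 target, was at -1.39, the isomerase Idi1 at -1.33 and the lanosterol synthase Lss at -1.16. Thus 9 of the 27 members lay more than 1 log2 unit below the other vehicle arrays, against 143 of all probe sets (0.461%). Srebf2, which encodes SREBP2, was 0.87 lower (-0.87) and Scap 0.63 lower (-0.63). Insig2, whose protein retains SREBP2 like INSIG1 but whose gene is not a classical sterol-induced target, was higher by 1.15 in the same array. Sc5d, Npc2 and Tmem97 differed little there, at 0.01, -0.06 and -0.12.

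The hepatocyte marker mean of vehicle replicate 1 was 13.70, the lowest of the vehicle arrays (median 13.80), and its fetal hepatocyte mean of 13.11 was the highest. Each of these means moved mainly with a single gene. Apoa2 lay at -0.69 from the other vehicle arrays, and the other hepatocyte markers at -0.07 to 0.04. Gpc3 lay at 0.90, and the other fetal hepatocyte markers at -0.08 to -0.01. Its skeletal muscle and pancreas means were both 4.64, the medians of the vehicle arrays, and its Kupffer cell mean of 9.66 was the lowest of the 5. The 3′ to 5′ difference of the actin probe sets, a measure of RNA integrity, was 2.00, within the range of 1.22 to 2.43 over all arrays. The part of these measures in its low values was not tested. When the 11302 single-symbol probe sets with a mean of at least 6 were ordered by the same difference, members made up 1 of the lowest 10, 4 of the lowest 20, 9 of the lowest 50 and 14 of the lowest 200, with 26 members ranked. The non-members furthest below were Fgf21 (-2.66), a fasting hormone of the liver, the carbonic anhydrase Car3 (-2.53), the eosinophil granule genes Epx (-2.26) and Prg2 (-2.21), and the skeletal actin Acta1 (-2.20). Acta1 was at 3.51 there and between 2.72 and 12.23 in the other vehicle arrays, so replicate 1 was not the lowest, and the high mean of the others came with the muscle transcripts of vehicle replicate 2. Those furthest above were the histidine decarboxylase Hdc (1.81), the acyl-CoA thioesterase Acot1 (1.76), the MHC genes RT1-CE10 (1.70) and RT1-Bb (1.59), and the acute-phase gene Orm1 (1.5). Fatty acid genes did not all go one way. Lowest of the listed lipogenesis genes were Fasn, the fatty acid synthase, at -1.67 and Acss2 at -1.13. Highest were the desaturase Scd at 1.56 and the acyltransferase Gpam at 1.36. Scd measured only 4.24 to 4.75 in the other vehicle arrays. The next lowest were Fads1 and Fads2, at -0.81 and -0.78, and the next highest Elovl5 and Me1, at 0.37 and 0.36.

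**Figure D1:**
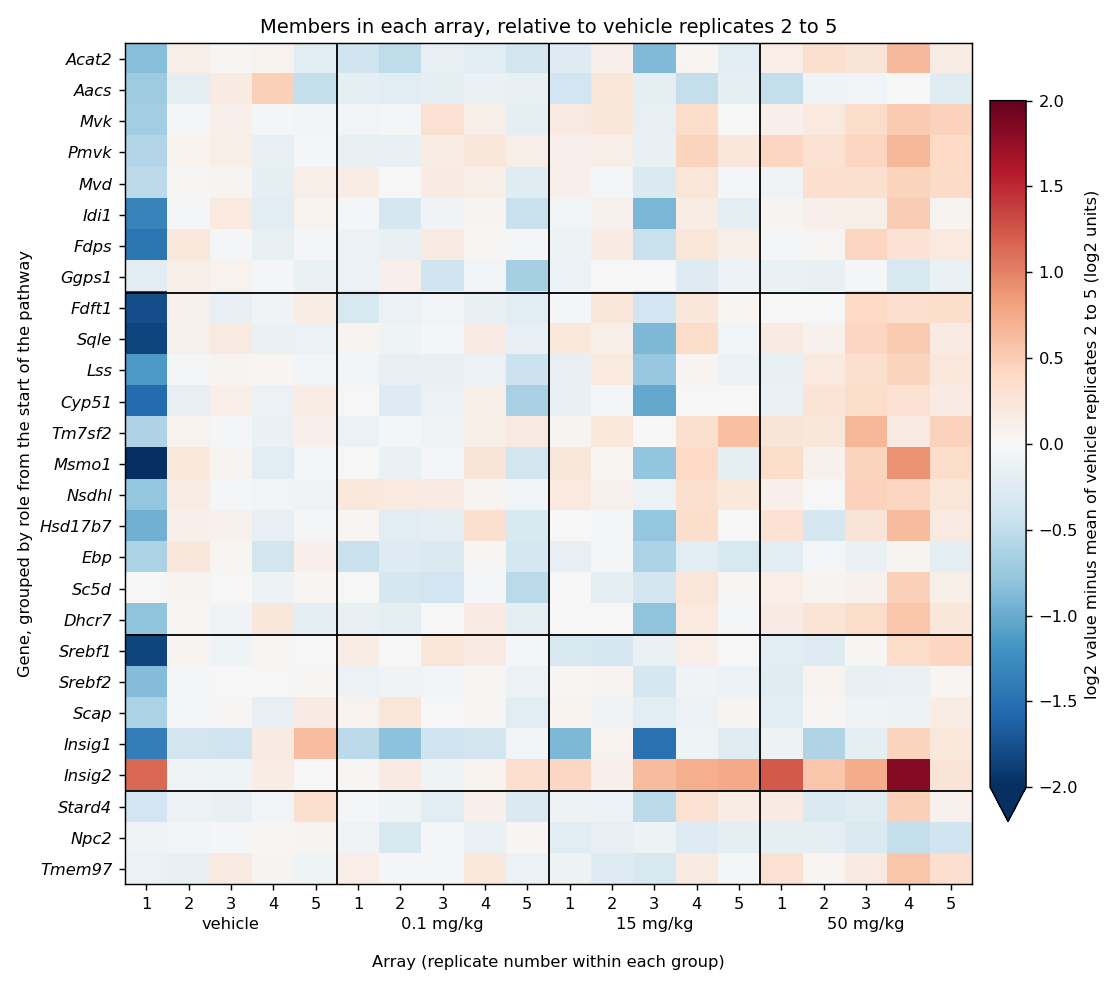
Each cell gives the log2 value of 1 of the 27 genes (vertical axis, in order of role) in 1 of the 20 arrays (horizontal axis, replicates 1 to 5 of each dose group), minus the mean of vehicle replicates 2 to 5. The column of vehicle replicate 1 is blue (lower) for nearly all genes and red for Insig2, the column of 15 mg/kg replicate 3 is the next bluest, and the 50 mg/kg columns are mostly pale red for the enzymes.

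With all 20 arrays in the model, 2 of the 27 members differed between 50 mg/kg and vehicle: Pmvk rose and Npc2 fell. The model was limma with Benjamini-Hochberg adjustment over all 31042 probe sets, and a change was called at an adjusted p under 0.05. It called 0.934% of all probe sets, 0.586% as higher and 0.348% as lower. The remaining 25 members did not pass, although 24 of the 27 estimates were above 0 and their median was 0.43, against a median of 0.01 over all probe sets, of which 53.0% were above 0. At an unadjusted p under 0.05 there were 15 members, against 13.0% of all probe sets.

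Leaving out vehicle replicate 1 reduced the shift of the list, and neither call was then made. Both calls were also lost without vehicle replicate 4 or 50 mg/kg replicate 3, 4 or 5, so that loss is not particular to this array, and the estimate for Npc2 was larger in size without vehicle replicate 1. The median member change went from 0.43 to 0.20, which is 47.1% of the first value, while the median over all probe sets stayed at 0.01. Then 0 of the 27 members passed limma's test (9 at an unadjusted p under 0.05, against 12.0% of all probe sets), although 0.728% of all probe sets did. The estimate became lower for 25 of the 27 members and turned negative for 4. Leaving out any other single array of the comparison gave medians of 0.36 to 0.50, so the estimate moved most with vehicle replicate 1. The spread also shrank: the standard error was smaller for 22 of the 27, with a median of 0.127 instead of 0.172.

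**Figure D2:**
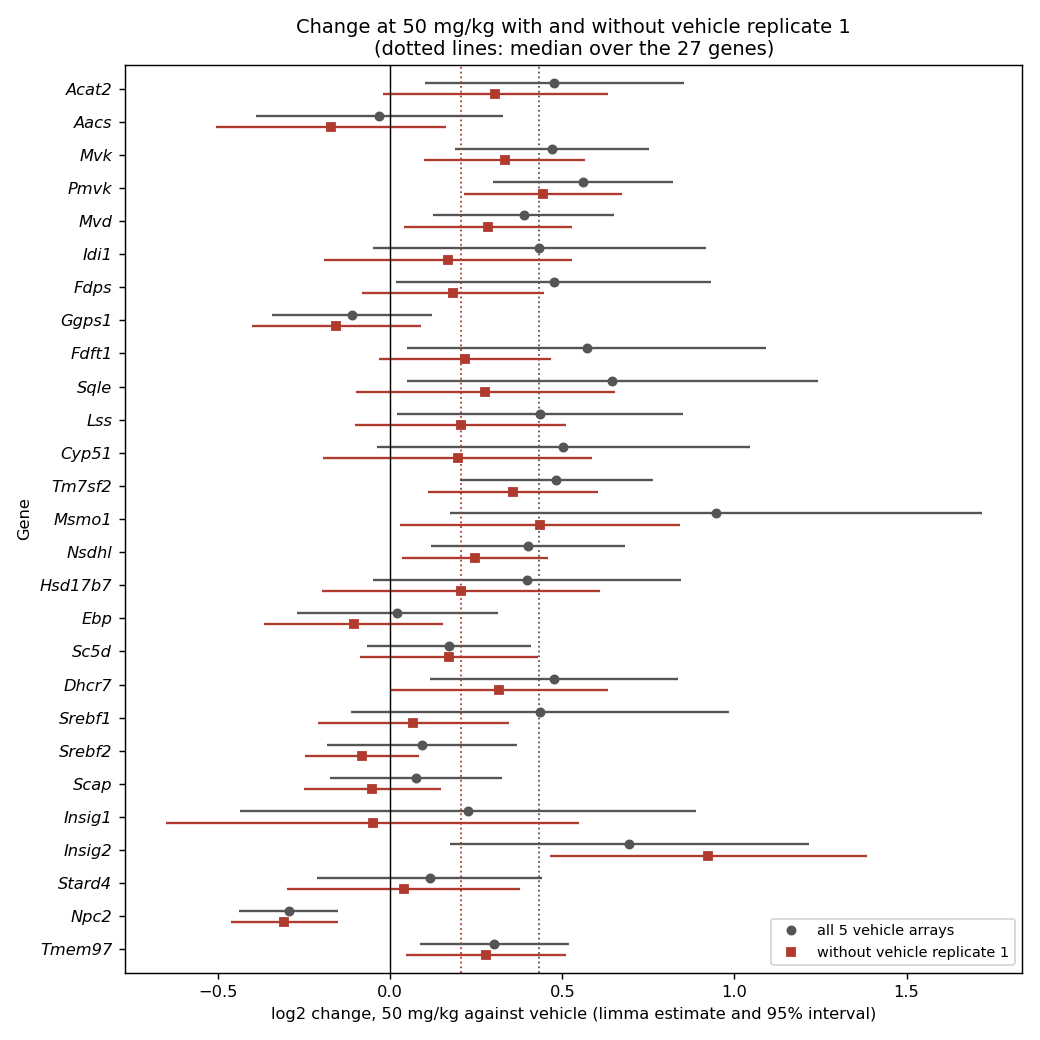
The horizontal axis is limma's estimate of the log2 change at 50 mg/kg against vehicle with its 95% interval, for each of the 27 genes (vertical axis), with all 5 vehicle arrays (grey circles) and without vehicle replicate 1 (red squares). Dotted lines at 0.43 and 0.20 mark the medians of the 2 sets. The red estimates lie to the left of the grey ones for 25 genes, and Msmo1 moves from 0.95 to 0.44.

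Of the 8 measured early enzymes, 1 rose at 50 mg/kg, 0 fell and 7 did not pass, where 0.586% of all probe sets rose. The median estimate of these enzymes was 0.45, or 0.23 without vehicle replicate 1. Pmvk, the phosphomevalonate kinase, measured 7.23, 7.88, 7.92, 7.64 and 7.79 in vehicle replicates 1 to 5 and 8.23, 8.11, 8.24, 8.47 and 8.21 at 50 mg/kg. The groups did not overlap, and replicate 1 was the lowest vehicle array. The log2 change was 0.56 (SE 0.125, 95% interval 0.30 to 0.82, adjusted p = 0.037 by limma), a fold of 1.47. Without vehicle replicate 1 it was 0.44 (SE 0.11, adjusted p = 0.0674 by limma). It passed in 4 of the 10 fits that left out 1 array, and was lost without vehicle replicate 1 or 4 or without 50 mg/kg replicate 1, 3, 4 or 5, with adjusted p from 0.0381 to 0.116 by limma. At 0.1 and 15 mg/kg Pmvk measured 7.66, 7.66, 7.96, 8.04 and 7.93 and 7.91, 7.92, 7.66, 8.26 and 8.04, both overlapping the vehicle arrays.

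Acat2, the cytosolic thiolase that begins the pathway, measured 7.44, 8.42, 8.32, 8.37 and 8.08 in vehicle and 8.43, 8.62, 8.56, 8.95 and 8.45 at 50 mg/kg, again with no overlap and with replicate 1 the lowest. Its change of 0.48 (SE 0.18, adjusted p = 0.252 by limma) did not pass. Mvk, the mevalonate kinase, ranged over 7.71 to 8.51 in vehicle and 8.51 to 8.93 at 50 mg/kg, just without overlap, with a change of 0.47 (SE 0.135, adjusted p = 0.114 by limma). Members without overlap in the higher direction numbered 5 (Acat2, Mvk, Pmvk, Tm7sf2 and Sc5d), against 1.78% of all probe sets, and 1 member, Npc2, lay lower without overlap, against 1.18%. Fdps measured 11.05, 12.72, 12.47, 12.36 and 12.48 in vehicle and 12.47, 12.54, 12.95, 12.80 and 12.70 at 50 mg/kg. Vehicle replicates 2, 3 and 5 lay inside the 50 mg/kg range and replicate 1 lay far below, and the change went from 0.47 (SE 0.219) to 0.18 (SE 0.127) without that array. Mvd, the mevalonate diphosphate decarboxylase, went from 0.39 to 0.28, and Idi1 from 0.43 to 0.17. Aacs, which activates acetoacetate, and Ggps1, which makes geranylgeranyl pyrophosphate for protein prenylation rather than sterols, were at -0.03 and -0.11.

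None of the 11 enzymes from squalene to cholesterol passed at 50 mg/kg with all arrays (0 of 11 by limma). At an unadjusted p under 0.05 by limma there were 7, against 13.0% of all probe sets. All 11 estimates were above 0 with a median of 0.48. Without vehicle replicate 1 the median was 0.22, 10 estimates were above 0 and 0 passed. Then 3 had an unadjusted p under 0.05 by limma, against 12.0% of all probe sets. Msmo1, with the largest estimate, measured 8.31, 11.07, 10.92, 10.63 and 10.83 in vehicle and 11.23, 10.96, 11.32, 11.77 and 11.23 at 50 mg/kg. Replicate 1 lay more than 2 log2 units below every other vehicle array, and of the other 4 only replicate 2 lay inside the 50 mg/kg range, with replicates 3, 4 and 5 below it. The vehicle mean was 10.36 ± 1.15 (SD, n = 5) with that array and 10.87 ± 0.18 (SD, n = 4) without it, and the change went from 0.95 (SE 0.37, adjusted p = 0.27 by limma), a fold of 1.93, to 0.44 (SE 0.194, adjusted p = 0.375 by limma), a fold of 1.35.

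Sqle behaved alike, with 7.56, 9.49, 9.59, 9.27 and 9.28 in vehicle and 9.58, 9.49, 9.84, 9.92 and 9.57 at 50 mg/kg. Of the vehicle arrays only replicate 3 lay inside the 50 mg/kg range, and replicate 1 was far below the other 4. The change was 0.64 (SE 0.286) with all arrays and 0.28 (SE 0.179) without replicate 1. Fdft1 measured 8.63, 10.48, 10.23, 10.33 and 10.55 in vehicle and 10.41, 10.40, 10.80, 10.73 and 10.74 at 50 mg/kg, and its change went from 0.57 to 0.22. Cyp51 measured 9.09, 10.46, 10.76, 10.51 and 10.78 and 10.50, 10.90, 10.99, 10.94 and 10.79, and its change went from 0.50 to 0.20. Vehicle replicates 2 and 5 of Fdft1 and replicates 3, 4 and 5 of Cyp51 lay inside the 50 mg/kg range.

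Tm7sf2, a sterol C14-reductase, was less tied to the single array: it measured 8.80, 9.49, 9.38, 9.29 and 9.53 in vehicle and 9.68, 9.66, 10.09, 9.60 and 9.88 at 50 mg/kg, without overlap. Its change of 0.48 (SE 0.134, adjusted p = 0.0999 by limma) did not pass and was 0.36 (SE 0.118) without replicate 1. Sc5d, the lathosterol desaturase, measured 10.49, 10.54, 10.49, 10.39 and 10.52 in vehicle and 10.62, 10.54, 10.56, 10.96 and 10.60 at 50 mg/kg, where the groups met without overlapping and vehicle replicate 1 was in the middle of its group. Its change was 0.17 with and without that array. The C4-demethylation partners Nsdhl and Hsd17b7 went from 0.40 to 0.25 and from 0.40 to 0.21. Lss went from 0.44 to 0.20, and Dhcr7, which reduces the last double bond of the Kandutsch-Russell branch, from 0.48 to 0.31. Ebp, the sterol isomerase, was at 0.02 and at -0.11 without replicate 1.

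**Figure D3:**
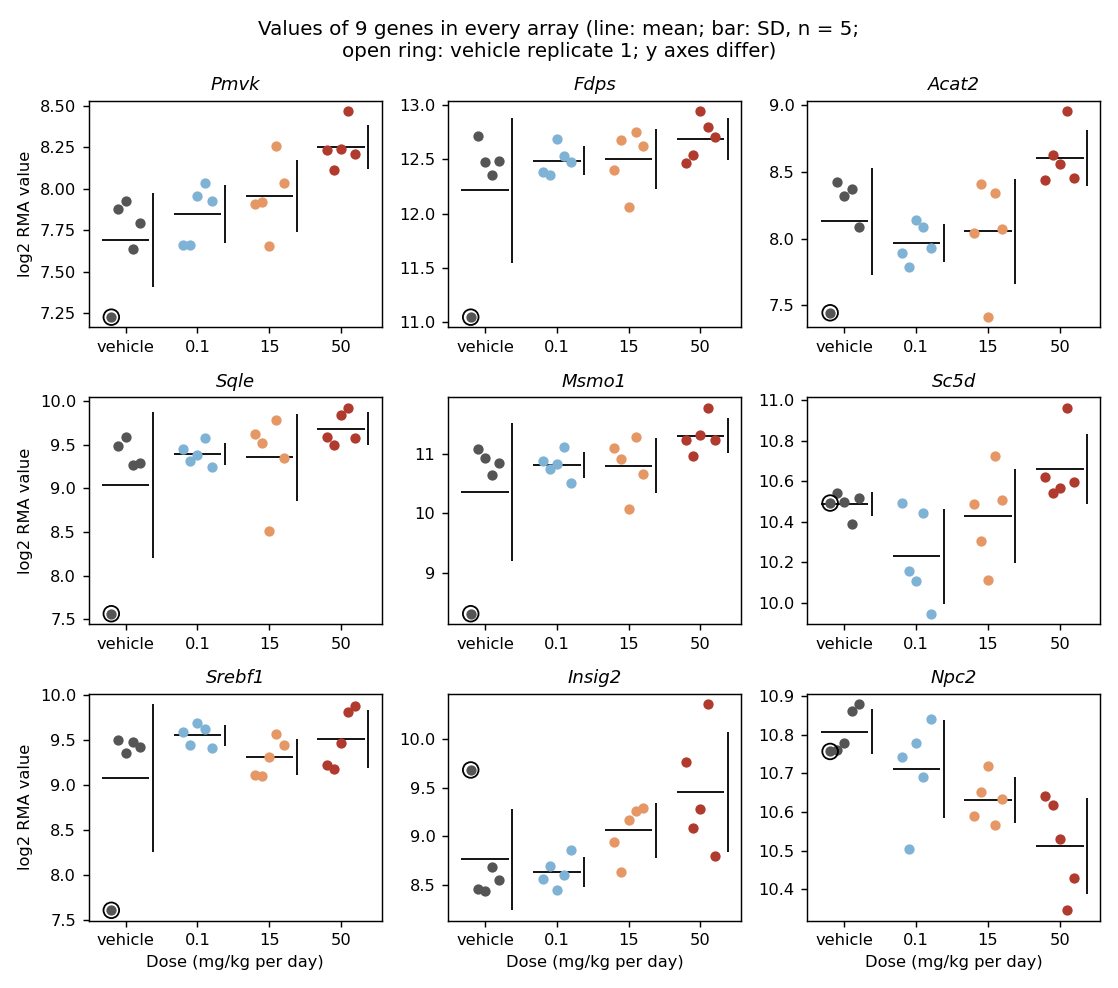
Each panel shows the log2 values (vertical axis, which differs between panels) of 1 of 9 genes in all 20 arrays by dose in mg/kg per day (horizontal axis), with the mean as a line and the SD (n = 5) as a bar, and an open ring around vehicle replicate 1. The ringed array lies far below its group for Sqle, Msmo1, Fdps and Srebf1, far above it for Insig2 and close to other vehicle arrays for Sc5d and Npc2.

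Of the 5 genes of the SREBP machinery 0 passed at 50 mg/kg by limma (1 at an unadjusted p under 0.05, against 13.0% of all probe sets). The median estimate of the 5 went from 0.23 to -0.05 when vehicle replicate 1 was left out. Srebf1 measured 7.61, 9.50, 9.36, 9.48 and 9.43 in vehicle and 9.22, 9.18, 9.47, 9.81 and 9.88 at 50 mg/kg. Vehicle replicates 2 to 5 lay between 9.36 and 9.50, inside the 50 mg/kg range, so the change of 0.43 (SE 0.263) became 0.07 (SE 0.132). Srebf2 ranged over 7.49 to 8.39 in vehicle and 8.12 to 8.43 at 50 mg/kg, and its estimate went from 0.09 to -0.08. Scap went from 0.07 to -0.05. Insig1 measured 8.89, 9.90, 9.87, 10.44 and 10.89 in vehicle and 10.17, 9.67, 10.09, 10.72 and 10.48 at 50 mg/kg, with wide overlap even without replicate 1, and its estimate went from 0.23 to -0.05.

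Insig2, by contrast, had a higher estimate without vehicle replicate 1. It measured 9.68, 8.46, 8.44, 8.69 and 8.55 in vehicle, 8.56, 8.70, 8.44, 8.61 and 8.86 at 0.1 mg/kg, 8.94, 8.63, 9.17, 9.26 and 9.30 at 15 mg/kg and 9.76, 9.09, 9.28, 10.36 and 8.80 at 50 mg/kg. Replicate 1 was the highest vehicle array, and the other 4 vehicle arrays all lay below the 50 mg/kg arrays. The change was 0.69 (SE 0.25, adjusted p = 0.223 by limma), and 0.92 (SE 0.22, 95% interval 0.46 to 1.39, adjusted p = 0.0582 by limma) without that array, a fold of 1.90 that still did not pass. The highest 50 mg/kg arrays for Insig2, replicates 1 and 4, were also those with muscle transcripts. Without all arrays holding muscle or pancreas transcripts the Insig2 change at 50 mg/kg was 0.22. That fit keeps vehicle replicate 1, the high vehicle array at 9.68. The remaining 50 mg/kg arrays measured 9.09, 9.28 and 8.80, and vehicle replicates 3, 4 and 5 measured 8.44, 8.69 and 8.55. The part of the muscle and pancreas transcripts in the Insig2 change was not tested further.

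Of the 3 measured sterol-handling genes, 1 fell, 0 rose and 2 did not pass, where 0.348% of all probe sets fell. Npc2, the lysosomal protein that hands cholesterol on to NPC1, measured 10.76, 10.76, 10.78, 10.86 and 10.88 in vehicle and 10.64, 10.62, 10.53, 10.35 and 10.43 at 50 mg/kg. The groups did not overlap, and vehicle replicate 1 was the lowest vehicle array but level with replicate 2. The change was -0.29 (SE 0.0689, 95% interval -0.44 to -0.15, adjusted p = 0.0461 by limma), 1.23-fold lower. Its size was -0.31 without vehicle replicate 1, where the adjusted p was 0.0609 by limma. It passed in 2 of the 10 fits that left out 1 array and was lost without any 1 of the 5 vehicle arrays or without 50 mg/kg replicate 3, 4 or 5 (adjusted p 0.0388 to 0.143 by limma). With a digit of the array description as a block its adjusted p was 0.0709 by limma. Npc2 is also abundant in macrophages, and the mean of Kupffer cell markers (7 of 9 measured) was 9.66 to 9.86 in vehicle and 9.07 to 9.45 at 50 mg/kg, without overlap; its part in the Npc2 result was not tested. Tmem97, a sterol-responsive receptor that binds NPC1, ranged over 9.56 to 9.88 in vehicle and 9.74 to 10.26 at 50 mg/kg, with a change of 0.30 (SE 0.104, adjusted p = 0.201 by limma) that was 0.28 without replicate 1. Stard4, a cytosolic sterol carrier, went from 0.11 to 0.04.

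At 15 mg/kg against vehicle 0 of the 27 members passed limma's test (4 at an unadjusted p under 0.05, against 12.1% of all probe sets), where 0.116% of all probe sets did. The median member change was 0.08, with 19 estimates above 0. Without vehicle replicate 1 it was -0.09, with 6 above 0 and 13 estimates turned from positive to negative. This group holds a low array of its own: 15 mg/kg replicate 3 measured 8.51 for Sqle, 10.08 for Msmo1 and 9.60 for Cyp51, below the other 4 arrays of its group. Without that array the median was 0.22, and without it and vehicle replicate 1 together it was 0.02. That array had muscle and pancreas marker means of 8.90 and 7.16, whose part in its low values was not tested. Sqle was at 0.32 with all arrays and -0.05 without vehicle replicate 1, and Msmo1 at 0.44 and -0.07. Npc2 was the 1 member without overlap, lower at 15 mg/kg with 10.59, 10.65, 10.72, 10.57 and 10.63 (0.754% of all probe sets lay lower without overlap). Its change of -0.18 did not pass (adjusted p = 0.327 by limma).

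At 0.1 mg/kg against vehicle 0 of the 27 members passed limma's test (1 at an unadjusted p under 0.05), and 0.0% of all probe sets passed (6.87% at an unadjusted p under 0.05). The median member change was 0.11 with 18 estimates above 0, and -0.07 with 9 above 0 when vehicle replicate 1 was left out, with 10 estimates turned from positive to negative. Msmo1 measured 10.87, 10.74, 10.82, 11.12 and 10.51 at this dose, a change of 0.45 that became -0.06. Sqle went from 0.35 to -0.01, Fdps from 0.27 to -0.02 and Srebf1 from 0.48 to 0.11. The comparisons with vehicle at the 3 doses share the same 5 vehicle arrays, so a low vehicle array moves all of them at once.

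**Figure D4:**
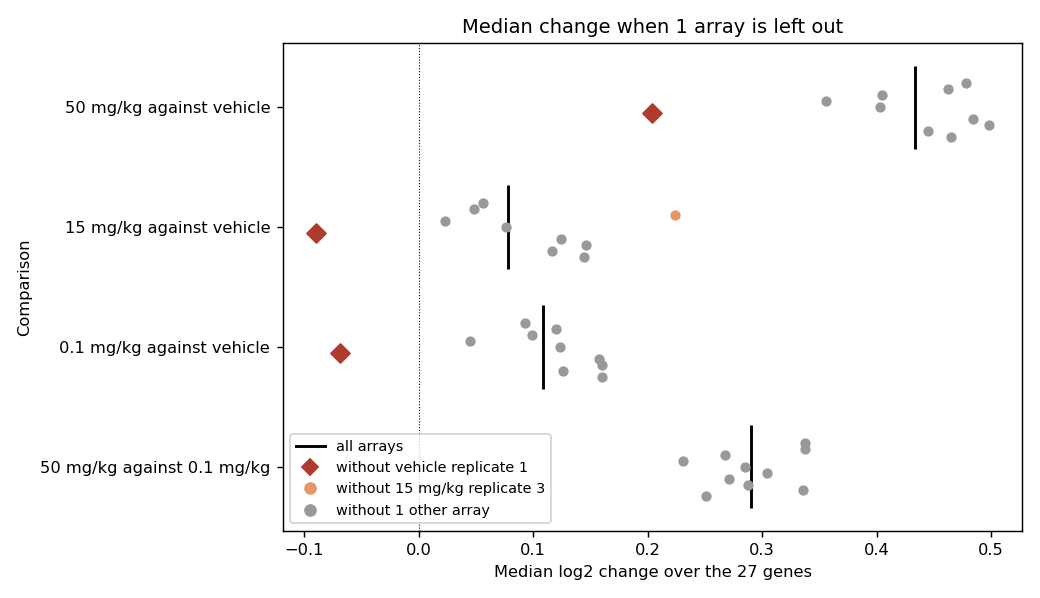
The horizontal axis is the median log2 change over the 27 genes in 4 comparisons (vertical axis), with all arrays (black line) and with each array of the comparison left out in turn (points). Leaving out vehicle replicate 1 (red diamonds) gave 0.20, -0.09 and -0.07 at 50, 15 and 0.1 mg/kg, the lowest value of each comparison with vehicle, and leaving out 15 mg/kg replicate 3 (orange) gave 0.22.

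The groups can also be compared without any vehicle array in the estimate. For 50 against 0.1 mg/kg the median member change was 0.29, against -0.01 over all probe sets, and 23 of the 27 estimates were above 0. No member passed limma's test in this comparison (0 of 27, 9 at an unadjusted p under 0.05), where 0.644% of all probe sets passed and 8.89% had an unadjusted p under 0.05. Leaving out any 1 of its 10 arrays gave medians of 0.23 to 0.34. Of the arrays in this comparison, 4 of 5 at 0.1 mg/kg and 2 of 5 at 50 mg/kg held muscle or pancreas transcripts, and the array lowest of its group for 17 of the 27 members, 0.1 mg/kg replicate 5, had a muscle mean of 8.19. Without such arrays, which leaves 1 array at 0.1 mg/kg that is assumed to vary like the other groups, the median was 0.21 with 25 estimates above 0, and the part of these transcripts in the shift was not tested further. Of the 27 members, 5 lay higher without overlap (Acat2, Pmvk, Idi1, Fdft1 and Sc5d), against 1.83% of all probe sets.

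Acat2 measured 7.90, 7.79, 8.14, 8.09 and 7.93 at 0.1 mg/kg, all below its 50 mg/kg arrays given above. The change was 0.64 (SE 0.18, adjusted p = 0.154 by limma), a fold of 1.55. The vehicle arrays enter this comparison only through the shared spread, and without vehicle replicate 1 the SE was 0.147 and the adjusted p 0.0529 by limma. It passed when only these 2 groups entered the limma model (adjusted p = 0.0265), and also with vehicle replicate 1 and 15 mg/kg replicate 3 both left out (adjusted p = 0.00648 by limma), a choice made after seeing the data. Sc5d measured 10.49, 10.15, 10.10, 10.44 and 9.94 at 0.1 mg/kg, below its 50 mg/kg range, and its change was 0.43 (SE 0.114, adjusted p = 0.115 by limma). Pmvk was at 0.40 (adjusted p = 0.221 by limma), Fdft1 at 0.39 and Idi1 at 0.33. Insig2 was at 0.82 (adjusted p = 0.206 by limma), and Msmo1, Cyp51 and Sqle were at 0.49, 0.37 and 0.29. Srebf1 was at -0.04.

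The other comparisons between doses gave no calls among the members. For 50 against 15 mg/kg the median member change was 0.23 with 25 estimates above 0, and 0 members passed limma's test (5 at an unadjusted p under 0.05, against 5.63% of all probe sets), as did 0.0% of all probe sets. Without 15 mg/kg replicate 3 that median was 0.14. Acat2 was the 1 member higher without overlap there, against 0.474% of all probe sets. For 15 against 0.1 mg/kg the median was -0.01, and 0 members passed by limma, where 0.0902% of all probe sets did.

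The genes around the pathway were read from separate lists at 50 mg/kg against vehicle. Of 6 further SREBP2 targets only Erg28, a scaffold of C4-demethylation, was measured, at 0.15 (adjusted p = 0.738 by limma). Of 7 genes that process or degrade the SREBP system, 6 were measured and 0 passed by limma, where 0.934% of all probe sets did. The median of the 6 was 0.01. Of 13 LXR and sterol efflux genes 0 passed by limma (6 at an unadjusted p under 0.05, against 13.0% of all probe sets), with a median of -0.08. Among them Soat1, which esterifies cholesterol, was at -0.59 (adjusted p = 0.185 by limma) and Scarb1, the HDL receptor, at -0.29 (adjusted p = 0.152 by limma).

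Of 16 lipogenesis genes 1 rose, 0 fell and 15 did not pass, where 0.586% of all probe sets rose and 0.348% fell. The median of the 16 was 0.21. The gene that rose was Me1, the malic enzyme that supplies NADPH, at 0.83 (SE 0.129, adjusted p = 0.00218 by limma) and 0.91 without vehicle replicate 1. Of 10 fasting and feeding genes 7 were measured, and 1 rose, against the same 0.586% of all probe sets. It was Pdk4, a kinase that inhibits pyruvate dehydrogenase, at 1.04 (SE 0.119, adjusted p = 7.3e-05 by limma) and 1.09 without vehicle replicate 1. Both were also higher for 50 against 0.1 mg/kg, where 0.644% of all probe sets were called. Me1 rose by 0.99 (adjusted p = 0.000316 by limma) and Pdk4 by 1.26 (adjusted p = 7.77e-06 by limma). Pklr, the liver pyruvate kinase, fell by 0.74 in that comparison (adjusted p = 0.00746 by limma), and Angptl4, an inhibitor of lipoprotein lipase, rose by 0.83 (adjusted p = 0.0309 by limma). At 15 mg/kg against vehicle 0 genes of these lists passed by limma, where 0.116% of all probe sets did.

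The members have 19 further single-symbol probe sets, 46 in all. At 50 mg/kg against vehicle 0 of the 19 passed by limma, where 0.934% of all probe sets did. When vehicle replicate 1 was left out, the second probe set of Cyp51 went from 0.51 to 0.17, Fdft1 from 0.64 to 0.25 and Srebf1 from 0.36 to 0.08. That of Insig2 again went up, from 0.62 to 0.78. The estimates of the remaining further probe sets are not quoted here.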

How the data were processed

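RNA (100 ng per sample) was amplified with the Affymetrix 3′ IVT Plus chemistry, and the deposited table holds log2 values per probe set made with RMA, per the submitters' processing notes. RMA corrects background, equalizes the distributions of the arrays and summarizes probes, which compresses large folds. The sources used here do not give its version or say whether the arrays were run through it as 1 set. The number of arrays limits the precision.

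Of 31099 probe sets, 57 controls were left out and 31042 tested without a filter. The platform annotation gave 1 symbol for 20826, several for 436 and none for 9780, and 20758 were matched by gene ID in RefSeq. Groups and replicate numbers came from the sample titles. A mean per group was fitted over all 20 arrays by lmFit and eBayes of limma 3.58.1 under R 4.3.3 (two-sided, Benjamini-Hochberg adjustment per contrast at 0.05, intervals of 95%). The series names R/maanova, which was not used here. Tables, promoter searches and figures were made with Python 3.11.15, pandas 2.3.3, numpy 2.4.6 and matplotlib 3.10.9.

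The members and gene lists were chosen with earlier results of these data known, vehicle replicate 1 included. All members were named, and of each related list those called at 15 or 50 mg/kg and up to 4 with the smallest p at 50 mg/kg could be. Genes of these lists quoted for 50 against 0.1 mg/kg come from that set. The 5 non-members furthest below and above in vehicle replicate 1 were also named. Alternatives covered blocks, samples, filter, normalization, variance model, array weights, RNA integrity, muscle or pancreas transcripts and each array left out in turn. In simulated data for 50 mg/kg against vehicle over 31042 probe sets, the code recovered 74% of changes of 0.5, 94% of 1 and 100% of 2 and of 3 log2 units, with 11 false calls. The simulated noise was normal and independent between probe sets and arrays, and no array was made to stand apart. These shares check the code and do not give the power for the members in the real arrays.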

Additional observations from a re-analysis of the deposited data

Results flagged for a closer look

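Among the 108 pairs of a member and a dose group, 19 had 1 array so far from the others that its gap to the nearest, divided by the range of the group, exceeded Dixon's critical value of 0.71 for 5 arrays. Chance gives about 1 in 20, and members measured on the same array are not independent of each other. The share over all probe sets is not given here. Vehicle replicate 1 was already known to be low, so these counts are a description and not a test.

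Vehicle replicate 1 was the outlying array in 13 of the 19. It was the lowest for Srebf2 (ratio 0.927), Srebf1 (0.923), Lss (0.910), Sqle (0.842), Msmo1 (0.841), Fdft1 (0.835), Cyp51 (0.814), Mvk (0.789), Fdps (0.788), Nsdhl (0.761), Hsd17b7 (0.754) and Idi1 (0.730). It was the highest for Insig2 (0.801). The same array thus stood out for synthase, oxidase and demethylase steps and for both SREBP genes.

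In the 15 mg/kg group, replicate 3 was the lowest for Cyp51 (0.850) and for Dhcr7 (0.789), the enzyme of a final reduction step. In the 50 mg/kg group, replicate 4 was the highest for Idi1 (0.874) and Sc5d (0.816), and replicate 1 was the lowest for Mvd (0.775). In the 0.1 mg/kg group, replicate 5 was the lowest for Lss (0.712).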

How the results depend on the processing

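Both calls at 50 mg/kg against vehicle depended on the setting. Of the 2 members called, 1 was called with the replicate block, after quantile normalization again, with equal medians and with vehicle replicate 1 and 15 mg/kg replicate 3 both left out, and 0 with only the groups compared, with RNA integrity (the actin probe sets at 3′ minus 5′) as a covariate and without arrays with muscle or pancreas transcripts. With the last 3 settings 89, 193 and 21 probe sets were called in place of 290. The adjusted p of limma ran from 0.0214 to 0.324 for Pmvk and from 0.0249 to 0.303 for Npc2 over all settings, and Tm7sf2 passed only with a digit of the array description as a block (0.0428), which ended the call of Npc2 (0.0709). Leaving out 1 array gave 106 (without 50 mg/kg replicate 4) to 264 probe sets and 0 to 2 members. At 15 mg/kg against vehicle 36 probe sets became 11 with only the groups compared and 7 without arrays with muscle or pancreas transcripts, and 14 (without 15 mg/kg replicate 5) to 44 when 1 array was left out, and at 0.1 mg/kg 0 became 1 without vehicle replicate 4. At 50 against 0.1 mg/kg 200 became 119 with the actin covariate, 3 without arrays with muscle or pancreas transcripts and 107 (without 50 mg/kg replicate 4) to 162 with 1 array left out. There 1 member, Acat2, was called with only the groups compared and with both low arrays left out. At 15 against 0.1 mg/kg 28 became 1 without arrays with muscle or pancreas transcripts, which removes samples as well. The median member difference of -0.77 for vehicle replicate 1 was 0.23, 0.24, 0.12 and 0.25 with vehicle replicate 2, 3, 4 or 5 in its place. In each of those the reference mean includes the low vehicle replicate 1, which raises the difference. Arrays of the same replicate number had median correlations of -0.14 to 0.14 per number, over gene deviations from group means. The highest was for number 3, with 4 of its 6 pairs over 0.1, against 39 of 120 pairs of different numbers and groups. The description digit was not checked in this way. With the replicate block 235 probe sets and 1 member, Pmvk, were called at 50 mg/kg against vehicle, while Npc2 was not (adjusted p = 0.0773 by limma).

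Of the members whose sign turned with some array left out, it turned only without vehicle replicate 1 in 3 of 5 at 50 mg/kg, 8 of 16 at 15 mg/kg and 11 of 14 at 0.1 mg/kg against vehicle. At 50 mg/kg against vehicle Aacs was 0.034 with the actin covariate and 0.0054 without arrays with muscle or pancreas transcripts, where Stard4 was -0.080, and Ebp was -0.018 with array weights and -0.029 with the actin covariate. With 1 array left out Aacs ran from -0.17 to 0.12, Ebp from -0.11 to 0.11, Srebf2 from -0.082 to 0.14, Scap from -0.052 to 0.15 and Insig1 from -0.051 to 0.45. At 15 mg/kg Cyp51 was -0.024 with array weights, and with 1 array left out Fdps ran from -0.0057 to 0.41, Sqle from -0.050 to 0.53, Cyp51 from -0.24 to 0.27, Msmo1 from -0.065 to 0.63 and Srebf1 from -0.13 to 0.34. At 0.1 mg/kg Fdps ran from -0.018 to 0.40, Sqle from -0.014 to 0.49, Cyp51 from -0.18 to 0.25, Msmo1 from -0.056 to 0.63, Insig1 from -0.43 to 0.069 and Insig2 from -0.21 to 0.10. At 50 against 0.1 mg/kg Srebf1 was 0.0015 with array weights, 0.017 with the actin covariate and -0.13 to 0.039 with 1 array left out. For the turns seen without other arrays, and for those with array weights or the actin covariate, the cause was not tested.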
